A study of Rattus norvegicus with 119 samples.

Results

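Fgf10, fibroblast growth factor 10, was followed as 1 gene of the 32662 Ensembl genes measured, in newborn rat ventral mesenchymal pad (VMP) and in the urethra next to it (SU). It was identified by its Ensembl ID (ENSRNOG00000012278), which lies on chromosome 2 between positions 51672722 and 51750369 of Rnor_6.0. Fgf10 is a secreted growth factor made by mesenchyme. It binds the IIIb isoform of Fgfr2, which epithelium carries, and epithelial budding and branching of the prostate, lung and other organs depend on it. The VMP is a mesenchymal condensate beside the urethra that induces prostatic epithelium when combined with it, and Fgf10 is among the factors long known in this mesenchyme.

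All tissue came from female Wistar rats on the day of birth (P0), without treatment, and was microdissected into VMP, which is mesenchyme, and SU, which holds smooth muscle, peri-urethral stroma and urethral epithelium. Tag-seq, which counts a short tag beside a restriction site of each transcript, was made from tissue pools of many animals, with 1 library per tissue. RNA-seq, with 1 library per tissue, and single-cell RNA-seq on the Fluidigm C1 chip, with 49 VMP and 66 SU cells, were made from collagenase-dissociated cell suspensions, from which epithelium and clumps had been strained. The RNA-seq libraries were made in parallel from cells of the suspensions, as a bulk comparator for the single cells, so these assays share their animals. The study gives different low cell inputs for them in its results and in its methods. The SU single-cell table holds more cells than the methods of the study give as sequenced.

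The Tag-seq libraries held 7870450 counts on genes in VMP and 8215177 in SU, and the RNA-seq libraries 4397699 and 7007767. Single cells held a median of 614376 counts on genes in VMP (248738 to 1200730) and of 631066 in SU (199849 to 1488320). No single-cell libraries had identical counts, and 33 cell numbers were used in both tissues. Marker levels were set beside the labels. A marker has an ID only where the study called it on these libraries, so a tissue difference in these markers is no independent check of the labels. The 12 epithelial markers with an ID, of 14 listed, summed to 564 CPM (counts scaled to one common total per library) in VMP and 9430 CPM in SU by Tag-seq, and to 13.9 and 215 CPM by RNA-seq. Among them Krt15, a basal keratin, had 536 counts in VMP and 10726 in SU by Tag-seq, and 0 and 637 by RNA-seq. Cldn4, a tight junction protein, had 973 and 9820 counts by Tag-seq, and 0 and 311 by RNA-seq. The median single cell of either tissue had no epithelial marker read. The 6 mesenchymal markers with an ID, of 8 listed, summed to more than 0 in every cell, with a median sum of 10671 CPM in VMP cells and 29859 CPM in SU cells. Epithelium was therefore measurable in the SU tissue library and in a small amount in the VMP tissue library, and its markers summed to at most 133 CPM in any single cell. The skeletal muscle genes Ckm and Myod1 had 21 and 77 Tag-seq counts in VMP and 160 and 421 in SU, and in RNA-seq 0 counts in VMP and 56 and 68 in SU. Both were named for the size of their ratios. Myog, Myf5, Myh3 and Chrna1 were also lower in VMP by RNA-seq, but Tnnc2 (17.3 and 17.4 CPM in VMP and SU) and Acta1 (15.2 and 13.8 CPM) were about level. Myf5 was about level by Tag-seq (12.7 and 13.1 CPM), and mean Tnnc2 was higher in VMP cells (104 and 40.7 CPM). Kdr, a VEGF receptor gene, had 651 and 158 counts in VMP and SU by Tag-seq and 1389 and 262 by RNA-seq, and was read in 49 of 49 VMP cells. The other 4 endothelial markers with an ID had higher mean levels in SU than in VMP cells (Cdh5 148 and 43.8 CPM, Emcn 233 and 45.3 CPM, Tie1 31.99 and 8.47 CPM, Flt1 53.1 and 20.6 CPM), unlike Kdr (48.95 and 240 CPM). In bulk libraries Cdh5, Emcn and Tie1 went toward VMP, as Kdr did. Their log2 ratios of VMP over SU were 1.57, 1.51 and 1.21 in Tag-seq and 0.53, 0.85 and 0.32 in RNA-seq. Flt1 was at 0.95 and -1.82. The direction of these 4 thus depended on the assay, and no statement on endothelium is drawn from Kdr. In bulk samples, fewer cells of a type and less RNA per cell cannot be told apart.

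Fgf10 was an abundant transcript of the VMP in all 3 assays, and its level in the SU depended on the assay. In VMP tissue, Tag-seq gave 5936 Fgf10 counts, or 754 CPM (95% counting interval 735 to 774). In SU tissue it gave 1640 counts, or 200 CPM (190 to 210). Fgf10 ranked 160 by Tag-seq count among the 14229 genes detected in VMP, and 1053 among the 15258 detected in SU, so the SU tissue library also held it above 93.1% of its detected genes. These intervals, and all intervals given for single libraries and cells, cover counting error only.

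In dissociated cells, RNA-seq gave 2414 Fgf10 counts in VMP, or 549 CPM (527 to 571), and 199 counts in SU, or 28.4 CPM (24.6 to 32.6). The VMP level was thus 0.728 times its Tag-seq level, whereas the SU level was 0.142 times its Tag-seq level. Means over single cells were below the RNA-seq libraries of the same suspensions. The mean over 49 VMP cells was 493 CPM, 0.897 times the RNA-seq level, and the mean over 66 SU cells was 22.98 CPM, 0.809 times the RNA-seq level. The SU value rests on 1 cell, without which the mean was 13.003 CPM, 0.458 times the RNA-seq level. In order of level, the VMP values by Tag-seq, RNA-seq and single cells came first, followed by SU Tag-seq, SU RNA-seq and SU single cells. The counting intervals of the 4 bulk libraries did not overlap, but the spread between animals was not measured, so neighbours within a tissue cannot be told apart on biological grounds. The gap between tissues was wider in dissociated cells than in whole tissue, through a lower SU level. Summed epithelial markers were also lower in SU RNA-seq than in SU Tag-seq, as given above, and so were 8 skeletal muscle markers with an ID (5184 CPM summed in SU Tag-seq and 315 CPM in SU RNA-seq). The same muscle markers were lower by RNA-seq in VMP too, at 1124 and 42.7 CPM, as were the epithelial markers. Their part in the change of the SU level was not tested, and assay and dissociation cannot be told apart.

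**Figure D1:**
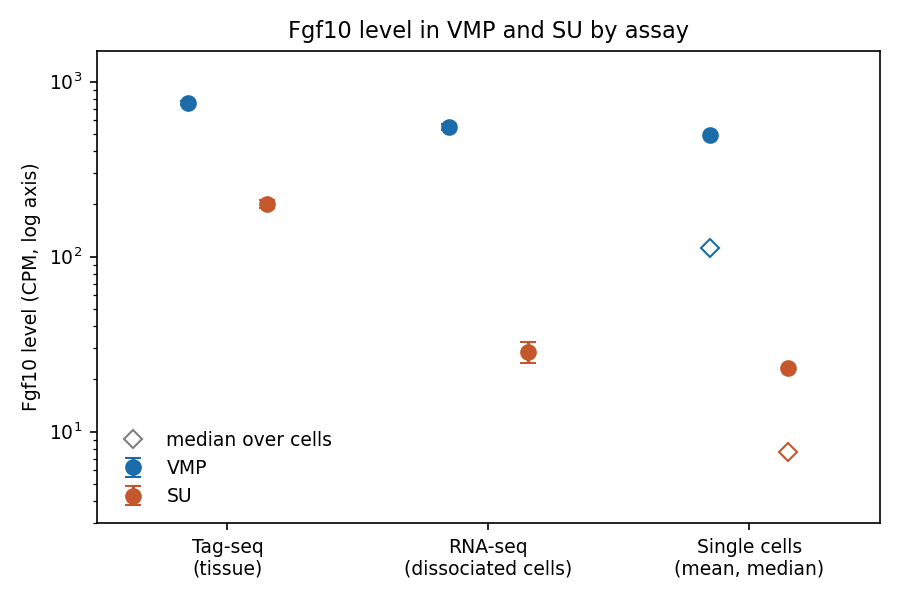
Fgf10 level in CPM (log axis) for VMP and SU in Tag-seq, RNA-seq and single cells. Filled points are the single library of each tissue with its 95% counting interval, or the mean over 49 VMP or 66 SU cells, and open diamonds are medians over cells. VMP points lie between 493 and 754 CPM, and SU points fall from 200 CPM in tissue to 28.4 and 22.98 CPM in dissociated cells.

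As log2 ratios of VMP over SU after TMM scaling (trimmed mean of M values), the tissues differed by 1.79 in Tag-seq (counting interval 1.71 to 1.87), by 4.06 in RNA-seq (3.85 to 4.28), and by 4.42 between the mean CPM of single cells. In linear terms this was 3.45-fold, 16.6-fold and 21.4-fold. With 1 library or 1 cell pool per tissue, no test was possible within an assay. Fgf10 passed the fold limit of the study, an absolute log2 ratio of 1.5, toward VMP in both bulk assays. The share of genes past that limit toward VMP was 7.2% of 12191 tested in Tag-seq, 16.1% of 17527 in RNA-seq, and 1.89% of the 11273 tested in both. Fgf10 was not at the extreme in either assay, since 4.27% of the genes tested in Tag-seq and 5.96% of those in RNA-seq had a larger ratio.

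A test of the tissues was made in 1 fit of the 4 bulk libraries that blocked on assay. Its error measures how far Tag-seq and RNA-seq differ in the tissue ratio, and says nothing of the spread between animals. With 4 libraries this error is in large part shared across genes. The p of Fgf10 is thus no measure of how closely its own 2 log2 ratios, 1.79 and 4.06, agree. The log2 ratio of Fgf10 was 2.92, with an adjusted p of 0.00247 (edgeR quasi-likelihood test, Benjamini-Hochberg over 15221 genes). It was higher in VMP in both assays, and it ranked 129 by p. In the same fit 0.473% of genes were called toward VMP, and 1.58% toward SU. The call was lost when counts summed over single cells were added to both bulk assays, with a log2 ratio of 3.44 and an adjusted p of 0.396, where edgeR called 0 genes and 1073 had an unadjusted p below 0.05.

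Fgf10 covered a wide range among VMP cells and stayed low in nearly all SU cells. All 49 VMP cells had Fgf10 reads, from 2 to 2005, with a median of 60. After scaling for depth, the lowest VMP cell was at 2.32 CPM, the median at 111 CPM and the highest at 4337 CPM, and the quartiles were 17.9 and 528 CPM. The mean of 493 CPM lay near the upper quartile, so most VMP cells were below the mean. Levels ran down without a gap from the highest to the lowest cell. Of the 49 cells, 7 had at least 1000 CPM, 25 at least 100 CPM (51.0%, exact Clopper-Pearson interval 36.3 to 65.6%) and 41 at least 10 CPM (83.7%, 70.3 to 92.7%). The highest 5 cells held 58.8% of the Fgf10 CPM summed over VMP cells, and the highest 10 held 81.1%.

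**Figure D2:**
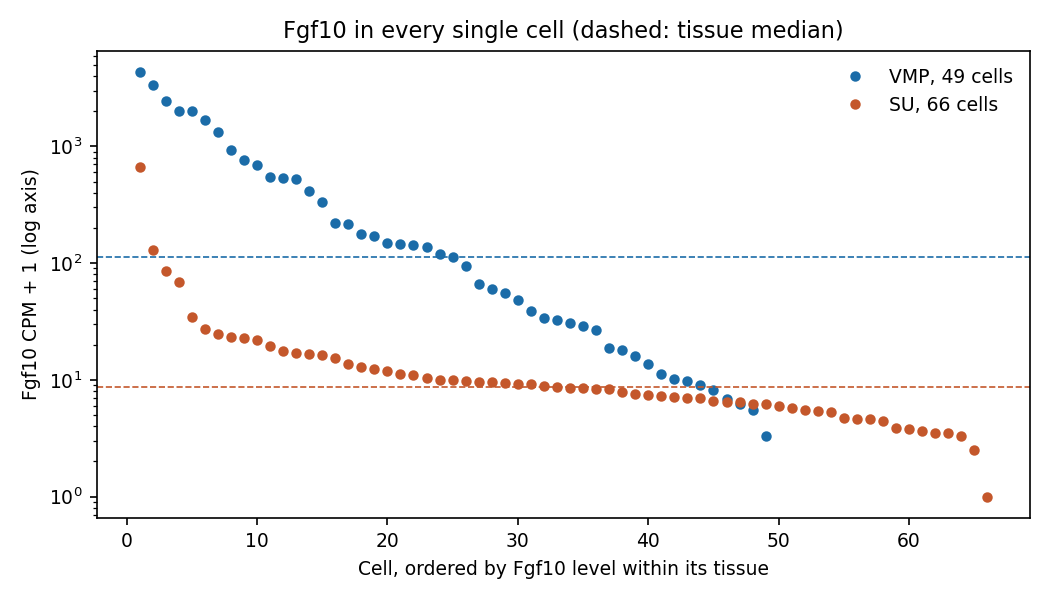
Fgf10 CPM + 1 (log axis) in each of 49 VMP and 66 SU cells, ordered from high to low within each tissue, with the tissue medians as dashed lines (111 CPM in VMP and 7.62 CPM in SU). VMP cells run from 4337 to 2.32 CPM without a gap, while 1 SU cell, at 671 CPM, stands above the other SU cells.

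This concentration was toward the high end for a gene of its level, without being exceptional. Among 557 other genes with a mean VMP CPM within 2-fold of that of Fgf10, the highest 10 cells of each gene held a median of 65.99% of its summed CPM, and 16.7% of these genes were more concentrated than Fgf10. Among other factors of the inductive mesenchyme, the share in the highest 10 cells was 92.3% for Fgf7, a sister ligand for the same receptor isoform, 87.1% for the Wnt agonist Rspo2 and 98.7% for the GDNF family receptor Gfra3. It was lower for Ptn, a heparin-binding growth factor (51.4%), and for Igf2, an insulin-like growth factor (48.5%), which are named here after their values were seen. Fgf7, Rspo2 and Gfra3 also had lower mean levels than Fgf10, at 144, 161 and 41.9 CPM.

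In the SU, reads of Fgf10 were spread thinly over nearly all cells. Of 66 SU cells, 65 had at least 1 read (98.5%, 91.8 to 100.0%), but the median was 5 reads and 7.62 CPM, and the quartiles were 5.06 and 12.4 CPM. Only 15 SU cells had at least 10 reads (22.7%, 13.3 to 34.7%), against 37 of 49 VMP cells (75.5%, 61.1 to 86.7%). Thinned to the depth of the shallowest cell, 199849 counts, 4 of 66 SU cells (6.06%, 1.68 to 14.8%) and 30 of 49 VMP cells (61.2%, 46.2 to 74.8%) kept 10 reads. Such even detection was uncommon for the level. Among 4260 other genes with a mean SU CPM within 2-fold of that of Fgf10, the median gene was read in 26 of 66 cells, and 2.65% were read in at least 65. In VMP the corresponding genes were read in a median of 48 of 49 cells. Other genes high in VMP ranged widely in this respect. The transcription factor gene Ebf3, named after its values were seen, came close to Fgf10, with reads in 66 of 66 SU cells, at least 10 reads in 18, and a mean of 21.03 CPM. Rspo2 had reads in 29 SU cells, Fgf7 in 9 and Gfra3 in 2. Of the 15 inductive mesenchyme factors described below, 4 were read in at least 60 SU cells and 5 in at most 10. Whether these few reads came from the cells themselves was not tested, and a share of cells with at least 1 read is not used here as a share of cells expressing Fgf10.

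One SU cell stood apart, with 430 reads and 671 CPM, next to 33 reads and 130 CPM in the second. This cell held 44.3% of the CPM summed over SU cells. Without it the SU mean was 13.003 CPM in place of 22.98 CPM, and the VMP mean was 37.9-fold higher in place of 21.4-fold. Leaving out the highest VMP cell gave a VMP mean of 412 CPM and a 17.9-fold difference. The tissues overlapped over cells. Of 49 VMP cells, 44 were above the SU median and 10 above the highest SU cell, whereas 9 were at or below the SU upper quartile. Of 66 SU cells, 2 were above the VMP median, and 55 were below the VMP lower quartile.

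Depth moved little with the Fgf10 level in VMP cells. Spearman's rho of Fgf10 CPM was -0.12 with the counts on genes, -0.16 with the number of genes detected and 0.15 with the spike-in share over 49 cells. In 66 SU cells the rho with counts on genes was -0.08, but that with the spike-in share was 0.46, so SU cells with relatively more spike-in RNA had higher Fgf10 CPM. CPM and spike-in share have the counts on genes in common. All rho over cells are descriptions, because each tissue gave a single pool of cells.

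Of the other FGF ligands, 3 had an ID: Fgf1, Fgf7 and Fgf13. Symbols were available only for genes that the study called in at least 1 bulk assay, so just 16 of the 72 listed genes of the FGF pathway could be looked up, and counts over them are not a measure of the pathway. Fgf7, made by mesenchyme like Fgf10, had 91 counts in VMP and 65 in SU by Tag-seq, and 879 and 98 by RNA-seq. Its log2 ratio was 0.41 in Tag-seq (-0.06 to 0.90) and 3.62 in RNA-seq (3.32 to 3.94), so its excess in VMP was seen in the dissociated cells and was within counting error in tissue. In VMP, Fgf7 stood at 11.6 CPM by Tag-seq against 754 CPM for Fgf10. By RNA-seq it stood at 200 against 549 CPM, and as a mean over cells at 144 against 493 CPM. The distance between the ligands thus depended on the assay, and levels of different genes are not on 1 scale in any of them. Among single cells 25 of 49 VMP and 9 of 66 SU cells had Fgf7 reads, and 12 VMP cells had at least 10 reads of both ligands, out of 37 with 10 Fgf10 reads and 17 with 10 Fgf7 reads. The Spearman correlation between the ligands over VMP cells was -0.02.

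Fgf1, a ligand that binds all FGF receptors, went the other way. It had 48 counts in VMP and 194 in SU by Tag-seq, a log2 ratio of -2.07. By RNA-seq it had 0 and 122 counts and was at least 29.6-fold lower in VMP, against a floor of 3 counts in the VMP library. Single cells did not show this excess in SU. Fgf1 was read in 1 of 49 VMP and 3 of 66 SU cells, with means of 0.46 and 0.07 CPM, against 17.4 CPM in SU RNA-seq. Fgf13, an intracellular FGF homolog that is not secreted, had 839 and 975 counts by Tag-seq and 160 and 73 by RNA-seq. Its log2 ratios of -0.28 and 1.59 differed in sign between assays. Fgf10 was the only one of these 4 ligands past the fold limit toward VMP in both bulk assays, and Fgf1 passed it toward SU in both.

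The 3 FGF receptor genes with an ID lay toward the SU. Fgfr2, the receptor gene of Fgf10, had 1033 counts in VMP and 8574 in SU by Tag-seq, and 173 and 497 by RNA-seq. Its log2 ratio was -3.12 in Tag-seq, with a counting interval of -3.22 to -3.03. The RNA-seq ratio was -1.06, with an interval of -1.32 to -0.81. Counts per gene do not separate the IIIb isoform from the IIIc isoform, which mesenchyme carries. Reads of Fgfr2 were found in 16 of 49 VMP cells and 37 of 66 SU cells, and in the SU 23 cells had at least 10. Ligand and receptor were at times read in the same cell: 7 VMP cells and 5 SU cells had at least 10 reads of both Fgf10 and Fgfr2. In VMP, 37 cells had 10 reads of Fgf10 and 11 had 10 of Fgfr2, and in SU 15 and 23. Whether the 2 genes shared cells more often than by chance was not tested.

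Fgfr3 had 13 counts in VMP and 82 in SU by Tag-seq, and 23 and 44 by RNA-seq, with log2 ratios of -2.68 and -0.46. The interval of the second, -1.27 to 0.28, included 0. Fgfr4 had 77 and 398 counts by Tag-seq, and 1 and 121 by RNA-seq, with log2 ratios of -2.43 and -5.88 (-11.78 to -3.95). All 3 receptors passed the fold limit toward SU in Tag-seq, where 14.2% of all genes did, and Fgfr4 passed it in RNA-seq, where 15.1% did, with nothing read from these shares since only genes called by the study have a symbol. Beside these values stand the epithelial markers, of which 12 of 12 tested passed the limit toward SU in Tag-seq and 8 of 11 in RNA-seq. These markers too have a symbol only where the study called them, so nothing is read from their counts either. The part of epithelium in the receptor ratios was not tested.

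Etv5, a transcription factor gene induced by FGF signalling, had 20 counts in VMP and 66 in SU by Tag-seq, and 28 and 232 by RNA-seq. It was lower in VMP in both assays, with log2 ratios of -1.77 and -2.57. Among carriers of FGF ligands, the heparan sulfate proteoglycans Sdc1 and Sdc4 passed the limit toward SU in both assays. Sdc1 had 548 CPM in VMP and 1687 in SU by Tag-seq, and 87.8 and 245 CPM by RNA-seq. Sdc4 had 96.8 and 363 CPM by Tag-seq, and 23.6 and 139 CPM by RNA-seq. In total Fgf10 passed toward VMP in both assays and 5 of the 16 pathway genes passed toward SU (Fgf1, Fgfr4, Sdc1, Sdc4 and Etv5). With total count scaling Sdc1 no longer passed in RNA-seq (log2 ratio -1.48), which left 4. The shares of all genes tested in both, 1.89% and 3.75%, are no measure for these counts, because the 16 genes have a symbol only where the study called them on these libraries.

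**Figure D3:**
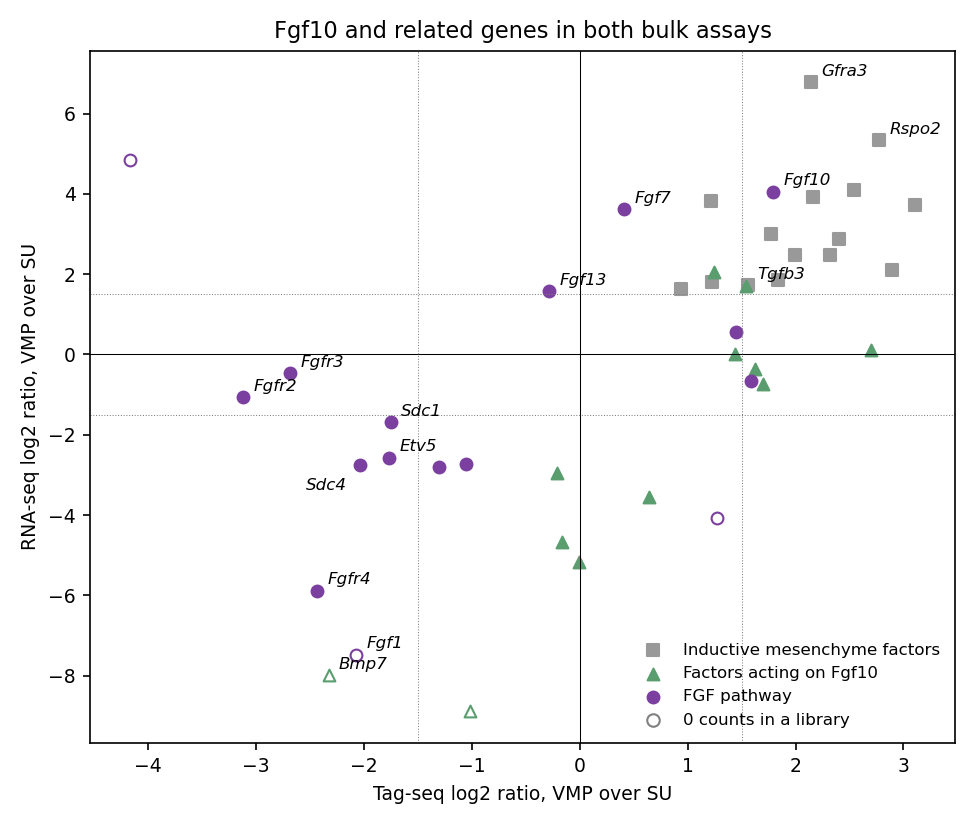
Log2 ratio of VMP over SU in Tag-seq (x axis) and RNA-seq (y axis) for 16 FGF pathway genes, 12 factors known to act on Fgf10 in budding organs and 15 inductive mesenchyme factors. Open symbols have 0 counts in a library, so their ratio rests on the pseudocount, and dotted lines mark the fold limit of 1.5. Fgf10, at 1.79 and 4.06, lies among the inductive factors, and the FGF receptors lie left of 0 with Etv5, Sdc1 and Sdc4.

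The inductive mesenchyme list holds 15 genes. All have a symbol only because the study called them on these libraries, so neither their direction nor the size of their ratios is independent evidence. Their median log2 ratio was 2.14 in Tag-seq and 2.89 in RNA-seq, beside a median over all genes tested of -0.01 and 0.03, and 12 of 15 passed the limit toward VMP in both assays. Of all genes tested in both, 1.89% did, but for genes chosen by such calls neither comparison is a measure. The ratios of Fgf10, 1.79 and 4.06, were below and above the median of this list. Rspo2 had 171 CPM in VMP and 22.9 CPM in SU by Tag-seq, and 151 and 3.14 CPM by RNA-seq. Gfra3 had 263 and 54.4 CPM by Tag-seq, and 209 and 1.57 CPM by RNA-seq. Their SU level was lower by RNA-seq, as that of Fgf10 was, but the size of their ratios chose them from the list. Over the whole list the SU level was lower by RNA-seq than by Tag-seq for 12 of 15 genes and the VMP level for 11, and the log2 ratio was larger by RNA-seq for 14.

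Of 28 factors listed as acting on Fgf10 in budding organs, 12 had an ID. Tgfb3, a TGF-beta ligand, passed the limit toward VMP in both assays, at 166 and 51.9 CPM (VMP and SU) by Tag-seq and at 462 and 121 CPM by RNA-seq. Bmp7, a BMP ligand, passed it toward SU, with 27 and 131 counts by Tag-seq and 0 and 173 counts by RNA-seq, at least 41.95-fold lower in VMP. No other member of this list passed in both assays in 1 direction. Of all genes tested in both, 1.89% passed toward VMP and 3.75% toward SU. Nothing is read from this, because the 12 have an ID only where the study called them on these libraries.

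Which genes varied with Fgf10 among VMP cells was described by Spearman's rho between CPM values over the 49 cells, for the 5778 other genes with reads in at least 20 of them. The rho had a median of -0.01 and an SD of 0.156 over genes. They ranged from -0.56 to 0.51, and 58 genes had an absolute rho of at least 0.4, 29 in each direction. These rho are modest, the points share 1 pool and their depth, and no p-value is given. In simulated cells, 0.376% of genes made without a tie to the target gene reached an absolute rho of 0.4. How many of the 58 would reach it by chance in the real cells was not tested. Only 806 of the genes ranked had a symbol, so 34 genes without one lay among the ranks of the 10 named as highest and 8 among those of the 5 named as lowest.

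Highest among named genes were Tmem109, a membrane protein of the nuclear envelope and endoplasmic reticulum (0.50), the mechanically gated channel Piezo2 (0.46), Tbc1d10b, a Rab GTPase-activating protein (0.46), Olfml3, a secreted olfactomedin-like protein (0.45), and Boc, a co-receptor for hedgehog ligands (0.42). Gprasp1 (0.41), the proapoptotic Bcl2l11 (0.41), the RNA polymerase I subunit gene Cd3eap (0.40), and Acot2 and Acadl, enzymes of mitochondrial fatty acid metabolism (0.39 and 0.38), followed. Tmem109 was read in 21 of 49 VMP cells, with a median of 0 and a highest value of 1174 CPM. Olfml3 was read in 34, with a median of 9.43 CPM and a highest value of 1900 CPM.

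Lowest among named genes were Lmod1, a smooth muscle actin nucleator (-0.56), the T-box transcription factor Tbx5 (-0.51), the actin crosslinker Flna (-0.46), the forkhead factor Foxf1 (-0.46) and the LIM-domain protein Fhl1 (-0.45). Lmod1 was read in 24 VMP cells with a highest value of 334 CPM, and the remaining cells tie at 0. Tbx5 was read in 46 of 49 VMP cells, with a median of 11.2 CPM and a highest value of 752 CPM, and Flna in all 49, with a median of 67.98 CPM. Tbx5 and Foxf1 are also on the list of factors acting on Fgf10, where Tbx5 is known as an activator of Fgf10 in limb and lung. VMP cells with more Fgf10 thus tended to have less Tbx5, with wide scatter. In bulk libraries Tbx5 was not lower in VMP, with log2 ratios of 1.44 in Tag-seq and 0.02 in RNA-seq.

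**Figure D4:**
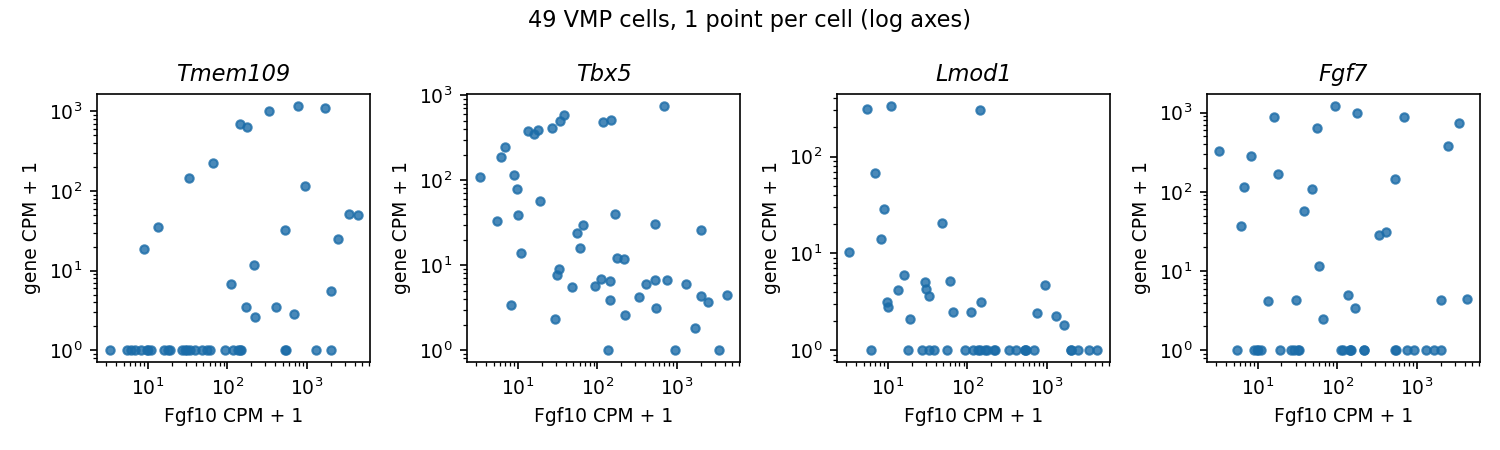
CPM + 1 of Tmem109, Tbx5, Lmod1 and Fgf7 (y axes) against CPM + 1 of Fgf10 (x axes) in 49 VMP cells, 1 point per cell on log axes. Tbx5 falls with Fgf10 (rho -0.51) with wide scatter, Tmem109 and Lmod1 have reads in 21 and 24 cells, and Fgf7 shows no trend (rho -0.02).

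In the 66 SU cells, which the ranking did not use, the rho of all 15 named genes were smaller or of the other sign. Over these cells, rho with Fgf10 was between -0.08 and 0.29 for the 10 highest genes, with 7 positive, and between 0.02 and 0.32 for the 5 lowest, with all 5 positive. Among the 50 highest genes with or without a symbol, the median rho was 0.10 in SU cells, and 33 were positive. Among the 50 lowest it was 0.01, and 26 were positive. Over all genes with a rho in both tissues, the SU median was -0.03 and 43.02% were positive. Fgf10 itself spanned only a few reads in most SU cells, between quartiles of 3 and 9 reads. Whether this low range accounts for the different rho in SU cells was not tested.

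**Figure D5:**
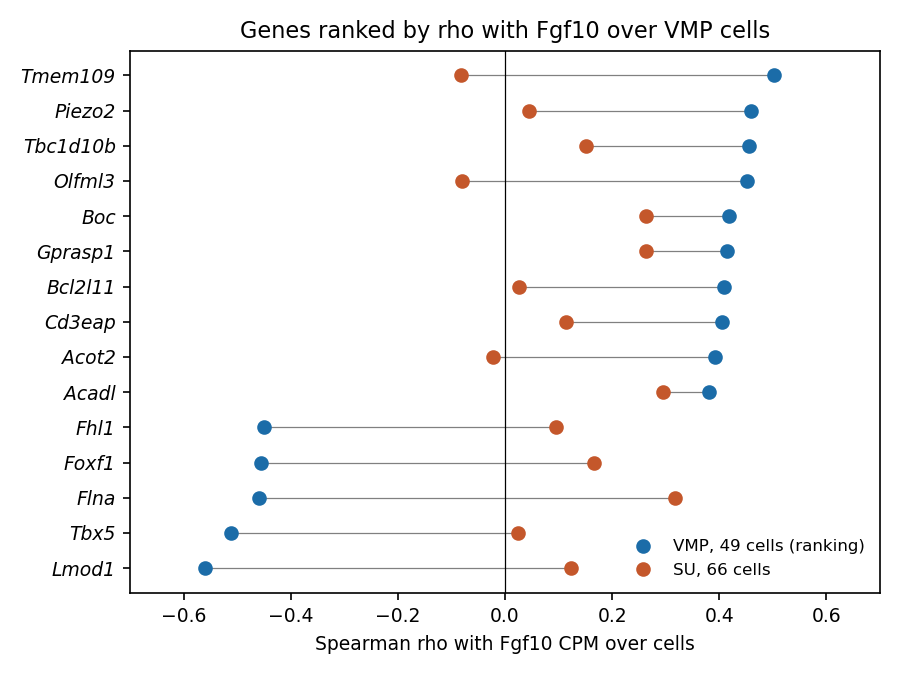
Spearman rho with Fgf10 CPM of the 15 named genes over 49 VMP cells, used for the ranking, and over 66 SU cells, which were not. All 5 genes with a negative rho in VMP cells have a positive one in SU cells, and the 10 genes at the top lie between -0.08 and 0.29 in SU cells.

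Other inductive factors did not vary closely with Fgf10 from cell to cell. Over VMP cells the 12 that were read in at least 20 cells had rho between -0.25 and 0.31, with a median of 0.08 and 8 positive. Ptn was the highest (0.31) and Nell2, a secreted neural EGF-like protein, the lowest (-0.25), both named after their values were seen, and Rspo2 was at 0.08. The 6 mesenchymal markers were between -0.01 and 0.28. Smooth muscle markers were represented by 2 genes, Lmod1 and Des, at -0.56 and -0.16, too few of 8 listed for a statement on smooth muscle. The 5 carriers of FGF ligands read in at least 20 cells were between -0.12 and 0.29, and the 8 factors acting on Fgf10 between -0.51 and 0.35.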

How the data were processed

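The authors deposited raw gene counts, with Ensembl IDs, for each of the 3 assays. Tag-seq reads had been cut to the tag and mapped by Bowtie2 (Rnor_6.0), keeping unique alignments outside mitochondrial DNA. Single-cell reads had been trimmed (Trimmomatic 0.33), mapped by TopHat against the transcriptome before the genome, and stripped of amplification duplicates (Picard 1.128). The submitters' processing notes name HTSeq, which the methods do not, and the alignment of bulk RNA-seq is not described apart. C1 libraries carry no molecular identifiers, so a read is not a molecule.

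Spike-in rows stayed out of library sizes. CPM were taken over counts on genes. Log2 ratios used TMM scaling and a pseudocount of 0.5 counts, for genes with CPM above 1 in at least 1 library. Counting intervals are exact at 95%, and a fold against 0 counts used a floor of 3 counts. The study's NOISeq scheme was not run, and its fold limit of 1.5 on the log2 scale served as the call. The test across genes was edgeR 4.0.16 (R 4.3.3), and DESeq2 1.42.0 was an alternative, with an adjusted p of 0.05 as threshold and the assay as a block. DESeq2 gave no adjusted p for 5017 genes, which were left as such. Spearman correlations and intervals were computed in Python 3.11.15 with pandas 2.3.3, scipy 1.17.1 and numpy 2.4.6. Samples were grouped by the titles in the labels. Replicate libraries were not analysed here, so p-values measure the spread between assays only. Thinning was random with a fixed seed, and doublets were not removed.

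The text names Fgf10, the FGF ligands, receptors and response genes with CPM above 1, from every other list the 2 genes per direction whose mean log2 ratio was largest among genes past the limit in both bulk assays, and the 10 highest and 5 lowest rho. The gene, the lists and the tests were chosen with earlier results of these data known. Symbols and positions came from the study's tables of called transcripts, so a median log2 ratio was given only for lists of which 80% had an ID, the epithelial list (12 of 14) and the inductive list (15 of 15). Of the others, counts, sums and ranges cover the members with an ID alone and do not stand for the list. These were factors acting on Fgf10 (12 of 28), mesenchymal (6 of 8), skeletal muscle (8 of 12), endothelial (5 of 8), smooth muscle (2 of 8), leukocyte (1 of 6), G2/M phase (2 of 18), FGF adaptors (0 of 7), FGF carriers (8 of 22), FGF ligands (4 of 22), FGF receptors (3 of 7) and FGF response (1 of 14). On simulated data edgeR called 100% of 200 genes changed 8-fold among 16304 and 6 unchanged genes, and DESeq2 100% and 305 unchanged genes. Each simulated gene had the same tissue ratio in both assays apart from random noise. The real disagreement between Tag-seq and RNA-seq was thus not simulated, and these rates do not carry over to the real fit. The simulated rho had the right sign for 100% of 200 tied genes, and 0.376% of untied genes had an absolute rho of at least 0.4. The ties were made strong and set on genes with higher counts only. This run therefore does not tell how well ties as weak as the real ones, or genes at 0 in many cells, are recovered.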

Additional observations from a re-analysis of the deposited data

How the results depend on the processing

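The direction of Fgf10, higher in VMP, held under each alternative run. In Tag-seq, total count scaling gave a log2 ratio of 1.92 in place of 1.79. That scaling moved all genes by 0.13 in Tag-seq and 0.21 in RNA-seq on the log2 scale. Over single cells, the log2 ratio of 4.42 became 4.32 with cells within 3 MADs of their tissue, 3.87 for medians over cells, 5.24 without the highest SU cell and 4.17 without the highest VMP cell, the last 2 added after seeing the data. Over the bulk assays, the adjusted p of 0.00247 was 0.00811 with DESeq2, 0.00515 with DESeq2 size factors in edgeR and 0.00388 without a filter, but 0.396 (log2 ratio 3.44) with summed single cells added to both, and the cause was not tested. The edgeR fit called 312 genes, and DESeq2 189. The share of cells with Fgf10 reads, 100.0% in VMP and 98.5% in SU, was 91.8% and 86.4% after thinning, 75.5% and 22.7% for at least 10 reads, and 51.0% and 3.03% for at least 100 CPM, a limit added after seeing the data. FGF pathway genes past the limit toward SU in both assays were 8 in place of 5 at a log2 limit of 1 and 4 with total count scaling, where Sdc1 was lost. Genes with an absolute rho of at least 0.4 were 27 in place of 58 among genes read in at least 40 VMP cells, where fewer genes were tested. Of the 58, 32 were shared under spike-in scaling and 28 after thinning. The 15 named rho kept their sign under each alternative that could be computed. Limits are 1 library or pool per tissue and assay, gene counts that do not separate isoforms, and symbols for part of the genes. No paired analysis was possible because the numbers that cells of both tissues share only name cells of separate pools, and the bulk libraries have 1 replicate per tissue and assay. The block on assay pairs the tissues by assay, not by replicate.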
